A study of Mus musculus with 6 samples.

Results

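The 45 genes described here serve the endoplasmic reticulum (ER), the compartment in which secreted and membrane proteins are folded. They cover stress sensors and signal genes (7), chaperones and their helpers (11), oxidative folding enzymes (6), ER-associated degradation (7), the translocation channel (8) and the oligosaccharyltransferase (6). They were chosen by name through their gene identifiers, and all 45 were found among the 18446 genes of the table. RNA sequencing was done on naive (antigen-inexperienced) CD4+ helper T cells, sorted as CD44lo CD62Lhi from spleen and lymph nodes of C57BL/6 mice aged 6 to 8 weeks. The cells came from mice labelled Zak-/- or from wild-type (WT) mice, and were cultured for 0, 6 or 48 h with stimulating antibodies to CD3, part of the T cell receptor complex, and to the costimulatory receptor CD28. The protocol text also speaks of a deficiency conditional on T cells, names no Cre driver, and does not say whether mice were pooled. Zak is the stress-activated MAP kinase kinase kinase encoded by Map3k20.

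There were 6 libraries, 1 for each label and time. No difference below therefore has a replicate check, no test was fitted and no p-value is given. Levels are FPKM, that is, mapped fragments scaled by transcript length and by the total of the library, so they are corrected for length and relative to the whole library. Fewer cells of a type and less RNA per cell cannot be told apart in such bulk samples, and the read depth is unknown. Differences are on the scale of log2(FPKM + 1), which understates the change of low genes. A gene was counted as higher or lower when it differed by 2-fold or more on that scale, exactly 2-fold included. Counts over all genes used the 10347 whose mean over the 6 libraries was at least 1 FPKM. All 45 ER genes passed this filter, of which Atf6 passed through its 6 h and 48 h libraries, since it was below 1 FPKM at 0 h.

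As background, the unfolded protein response is the signalling that adjusts the folding capacity of the ER to its load. Its sensors are IRE1 (Ern1), PERK (Eif2ak3) and ATF6. The chaperone BiP (Hspa5) is held to restrain these sensors while it is free, and is itself a classical target of the response. IRE1 splices the mRNA of the transcription factor Xbp1, PERK phosphorylates the translation factor eIF2α, and ATF6 is cut in the Golgi to release a transcription factor. In lymphocytes the response is best known from plasma cells, and activated T cells also expand their secretory and membrane protein output.

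ATF6, with the CCAAT-binding factor NF-Y, is known to act through the ER stress element, spelled CCAAT, any 9 bases, CCACG. A shorter form, ER stress element II, is spelled ATTGG, any base, CCACG. RefSeq promoters (GRCm38.p6, 250 bases before to 50 after a gene's start) were held for 38 of the 45 genes, and both strands were searched. The windows with either element are shown because the letters of these elements recur in 11 of the 38 promoters. Each line gives the gene, the position and strand of the letters printed, and the element with 12 bases on either side, its defining letters in capitals.
Hspa5, chr2:34772013-34772055, + strand: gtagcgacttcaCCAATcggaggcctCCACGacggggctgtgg
Hsp90b1, chr10:86705521-86705563, + strand: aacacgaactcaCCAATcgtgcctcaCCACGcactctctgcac
Hsp90b1, chr10:86705626-86705668, - strand: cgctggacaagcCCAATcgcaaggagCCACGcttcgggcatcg
Calr, chr8:84847063-84847105, + strand: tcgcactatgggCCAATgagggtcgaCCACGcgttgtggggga
Canx, chr11:50325788-50325830, - strand: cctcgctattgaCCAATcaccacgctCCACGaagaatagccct
Creld2, chr15:88819508-88819550, - strand: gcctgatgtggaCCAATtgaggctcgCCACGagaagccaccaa
Dnajc3, chr14:118937815-118937857, + strand: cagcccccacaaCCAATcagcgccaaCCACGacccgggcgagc
Pdia6, chr12:17266479-17266521, + strand: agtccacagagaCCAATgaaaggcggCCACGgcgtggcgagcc
Ero1lb, chr13:12565670-12565712, - strand: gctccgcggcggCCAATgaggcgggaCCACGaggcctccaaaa
Syvn1, chr19:6046520-6046562, + strand: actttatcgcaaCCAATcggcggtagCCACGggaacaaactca
Dnajb11, chr16:22857840-22857874, + strand: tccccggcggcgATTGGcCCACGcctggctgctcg
Herpud1, chr8:94386365-94386399, + strand: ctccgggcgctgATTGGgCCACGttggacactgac

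The longer element was found in 9 of 38 promoters (23.7%), against 37 of 27025 mouse genes with a promoter in the same table (0.137%). Among those also in the expression table the share was 0.173%. The shorter one was found in Dnajb11 and Herpud1 (5.26%), against 12 of the 27025 (0.0444%) and 0.0693% of those in the expression table. Several of these genes are textbook examples of the element and the set was put together by function, so these shares describe the set and are no test. All sites but that of Dnajb11 lay before the gene's start, the nearest centre at -35 bases in Syvn1 and the farthest at -203 in Hsp90b1, which carries 2 sites. The Dnajb11 site was centred 12 bases after the start. The letters CCACG alone, which both elements contain, were present in 30 of 38 promoters (78.9%), against 35.5% of all genes and 45.5% of those in the expression table, and CCAAT in 30 (78.9%), against 41.1% of all and 42.8% of those in the expression table. Of other motifs searched on both strands, TGACGTGG, whose complement holds CCACG, was found in 0 of 38. Its share was 0.714% of all genes and 0.9145% of those in the expression table. The cyclic AMP response element TGACGTCA was found in Ppp1r15a (2.63%), against 2.03% of all and 2.94% of the 14434 genes of the expression table with a promoter. TGATGNAAT, a composite site of C/EBP and ATF factors, was found in 0 of 38, against 1.08% of all and 0.776% of those in the expression table. The E-box CACGTG was found in 5 of 38 (13.2%), against 8.09% of all and 10.06% of those in the expression table. Motifs made of so few letters also occur without binding, and their absence says only that the letters are not in these windows.

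**Figure D1:**
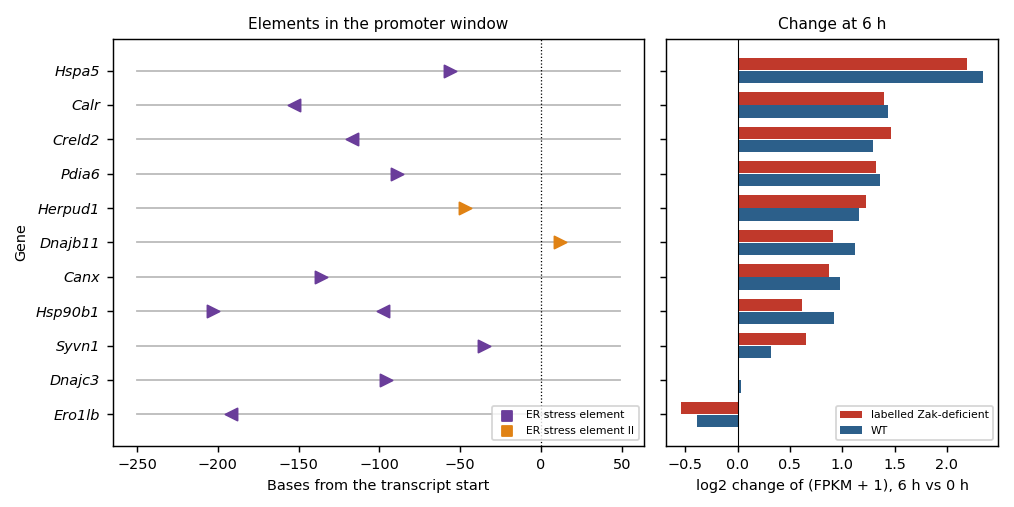
Left, the centre of each element in bases from the transcript start for the 11 genes that hold one, with arrowheads for the strand; right, the log2 difference of FPKM + 1 at 6 h against 0 h in the libraries labelled Zak-deficient (red) and in WT (blue). The genes run from Hspa5, the highest, to Ero1lb, the only one below 0 in both labels.

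The promoter of Hspa5 (chr2:34771840-34772139, + strand, RefSeq GRCm38.p6) is printed whole because Hspa5 had the largest 6 h log2 difference among the genes with an element, with the element in capitals. CCAAT occurred 4 times in this window on either strand.
Hspa5 promoter: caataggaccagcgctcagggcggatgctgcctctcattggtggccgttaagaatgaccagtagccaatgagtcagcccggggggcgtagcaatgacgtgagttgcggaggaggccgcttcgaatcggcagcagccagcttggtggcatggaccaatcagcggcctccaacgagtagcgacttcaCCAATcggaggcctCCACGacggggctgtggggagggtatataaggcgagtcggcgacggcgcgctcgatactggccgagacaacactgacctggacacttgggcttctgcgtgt

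Library sums lay between 496045 and 546113 FPKM, and none of the 45 genes was listed at 0 in any library. Map3k20 read 0.10 FPKM at 0 h, 0.10 at 6 h and 1.61 at 48 h in the libraries labelled Zak-deficient, and 0.17, 0.19 and 1.35 FPKM in WT at the same times. At 48 h the library labelled Zak-deficient was thus not the lower of the pair, so the label is used here as given and not as a checked genotype. Markers of T cells (6 of 6 in the table) summed to 1665 to 1732 FPKM in the libraries labelled Zak-deficient and 1649 to 1705 in WT. The genes within this sum also went different ways. Cd4 read 357, 259 and 219 FPKM at 0, 6 and 48 h in the libraries labelled Zak-deficient and 329, 224 and 218 FPKM in WT. Cd28 read 118, 128 and 160 FPKM in the libraries labelled Zak-deficient and 114, 133 and 157 FPKM in WT. Plasma cell markers (5 of 5) summed to 2.08 to 3.04 FPKM in the libraries labelled Zak-deficient and 2.57 to 3.16 in WT, but the genes of this list went different ways. Derl3 read 0.33, 0.66 and 2.01 FPKM at 0, 6 and 48 h in the libraries labelled Zak-deficient and 0.34, 0.68 and 2.48 FPKM in WT, while Prdm1 read 1.61, 1.11 and 0.16 FPKM in the libraries labelled Zak-deficient and 2.02, 1.26 and 0.17 FPKM in WT. Sdc1 stayed between 0.23 and 0.52 FPKM, Jchain between 0 and 0.24 and Tnfrsf17 between 0 and 0.14 in all 6 libraries. CD8 T cell markers summed to 10.53 to 12.78 FPKM in the libraries labelled Zak-deficient and 8.88 to 11.66 in WT, most of it Cd8b1. B cell markers summed to 5.69 to 8.22 FPKM in the libraries labelled Zak-deficient and 3.54 to 5.67 in WT, and myeloid markers to 3.44 to 4.83 in the libraries labelled Zak-deficient and 3.26 to 4.37 in WT. Natural killer cell markers summed to 0.54 to 2.23 FPKM in the libraries labelled Zak-deficient and 0.27 to 1.26 in WT. Of these, Nkg7 read 0.16, 0.61 and 2.16 FPKM at 0, 6 and 48 h in the libraries labelled Zak-deficient. In WT it read 0.16, 0.69 and 1.26 FPKM. Ncr1 stayed between 0 and 0.09 FPKM and Klrb1c between 0 and 0.29 in all 6 libraries, both lower at 48 h than at 0 h. Erythroid markers (3 of 5 in the table) summed to 0 to 1.75 FPKM in the libraries labelled Zak-deficient and 1.49 to 2.54 in WT. Their part in the results was not tested.

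Within 6 h of stimulation many ER genes stood higher in both labels, with Sdf2l1 and Hspa5 in the lead. Compared with 0 h, 10 of the 45 (22.2%) were higher by 2-fold or more at 6 h in both labels, against 7.64% of all genes past the filter. None was 2-fold lower in both, against 0.512% of all. Of the 10, 5 were chaperones or their helpers; the list is Atf6, Hspa5, Hyou1, Sdf2l1, Creld2, Calr, Pdia6, Herpud1, Rpn1 and Dad1. The median log2 difference of the 45 was 0.65 in the libraries labelled Zak-deficient and 0.69 in WT, while that of all genes was -0.08 in the libraries labelled Zak-deficient and -0.06 in WT. Taken singly, the libraries labelled Zak-deficient had 10 genes higher (9.08% of all) and Eif2ak3 lower (1.52% of all), and the WT libraries had 14 higher (8.94% of all) and 0 lower (1.39% of all). Xbp1, Dnajb11, Manf and Stt3a made up the difference, and in the libraries labelled Zak-deficient they stood below the limit at 0.70, 0.91, 0.92 and 0.90 on the log2 scale.

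**Figure D2:**
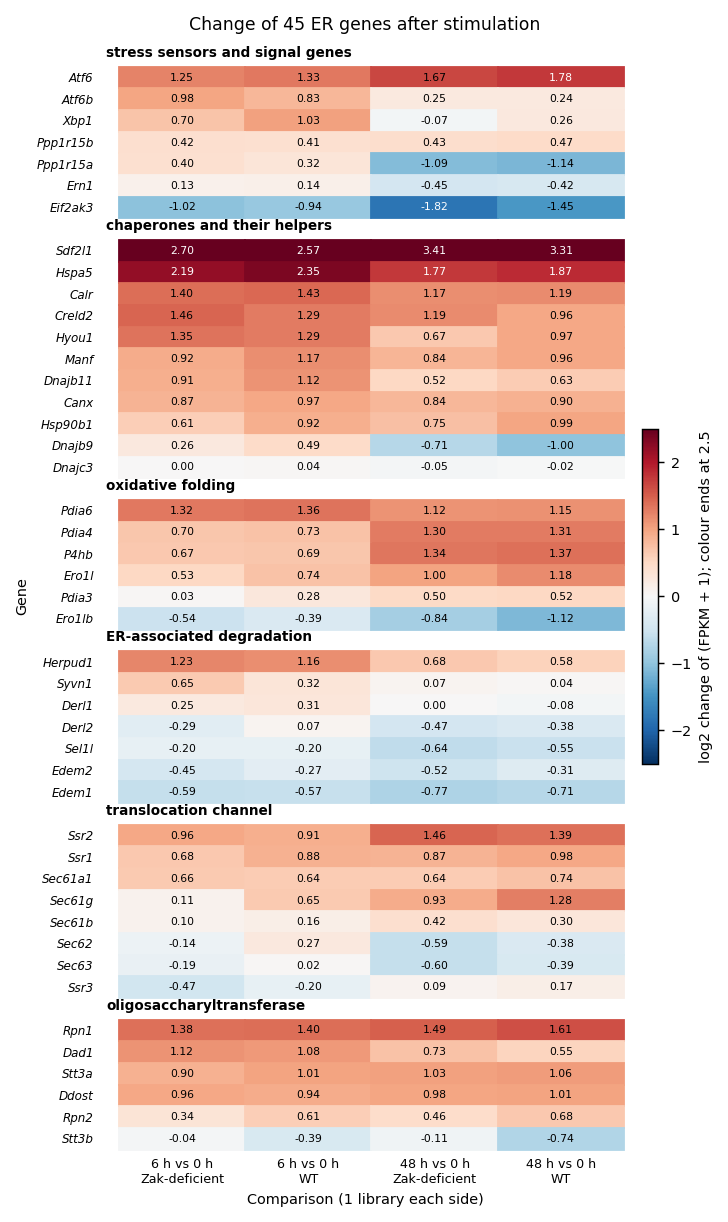
Heat map of the log2 difference of FPKM + 1 at 6 h and at 48 h from 0 h for each of the 45 ER genes (rows, grouped by role) in the libraries labelled Zak-deficient and in WT (columns), with the value in each cell, red above 0 and blue below, and colour ending at 2.5. Sdf2l1 has the highest value and Eif2ak3 the lowest in all 4 columns.

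Among the chaperones, all 11 stood above their 0 h level at 6 h in both labels. Of all genes, 43.9% did so in the libraries labelled Zak-deficient and 45.2% in WT. The medians of the 11 were 0.92 in the libraries labelled Zak-deficient and 1.17 in WT. However, Dnajc3 fell below 0 in both when libraries were scaled to a common sum. Hspa5, the main ER chaperone of the Hsp70 family, read 59.1 FPKM at 0 h, 273 at 6 h and 205 at 48 h in the libraries labelled Zak-deficient. In WT it read 64.0 FPKM at 0 h, 329.5 at 6 h and 236 at 48 h. Both stimulated libraries of each label stood far above their 0 h library, with the highest level at 6 h. In FPKM + 1 the 6 h value was 4.56-fold that at 0 h in the libraries labelled Zak-deficient and 5.09-fold in WT. Calr, the lectin chaperone calreticulin, read 135, 359 and 305.5 FPKM at 0, 6 and 48 h in the libraries labelled Zak-deficient, and 144, 391.6 and 331 FPKM in WT. It was the most abundant of the 45 genes in every library except WT at 0 h, where Pdia3 was. Its log2 difference at 6 h was 1.40 in the libraries labelled Zak-deficient and 1.43 in WT.

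Sdf2l1, a partner of BiP in the ER, had the largest change of the set. It read 2.34, 20.6 and 34.6 FPKM at 0, 6 and 48 h in the libraries labelled Zak-deficient, and 2.77, 21.3 and 36.4 FPKM in WT. It was higher at each later time in both labels. Its fold of FPKM + 1 at 48 h over 0 h was 10.7 in the libraries labelled Zak-deficient and 9.92 in WT. The fold of FPKM itself was larger in both. Hyou1, the large chaperone and nucleotide exchange factor Grp170, read 19.6, 51.6 and 31.9 FPKM in the libraries labelled Zak-deficient and 18.4, 46.4 and 36.9 FPKM in WT. Creld2, a stress-inducible ER protein, read 10.1, 29.5 and 24.2 FPKM in the libraries labelled Zak-deficient and 11.8, 30.3 and 23.9 FPKM in WT. Both were highest at 6 h, at log2 differences of 1.35 and 1.46 in the libraries labelled Zak-deficient and 1.29 and 1.29 in WT. At 48 h Creld2 was 2-fold higher than at 0 h in the libraries labelled Zak-deficient (1.19) and just short of it in WT (0.96).

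**Figure D3:**
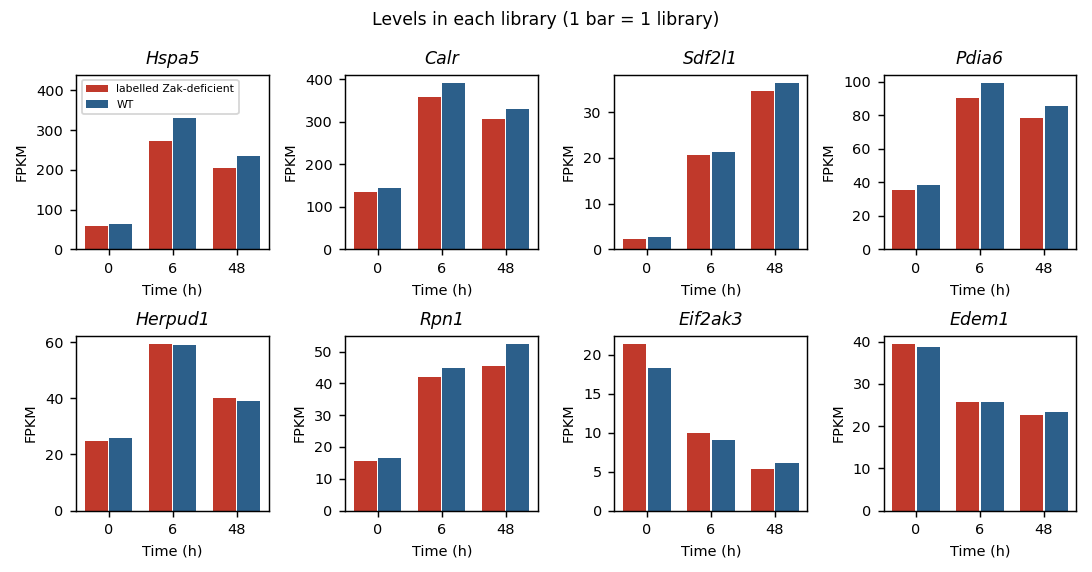
FPKM at 0, 6 and 48 h for 8 of the ER genes, with 1 bar per library, red for the libraries labelled Zak-deficient and blue for WT. Hspa5, Calr, Pdia6 and Herpud1 are highest at 6 h, Sdf2l1 and Rpn1 at 48 h, and Eif2ak3 and Edem1 at 0 h, in both labels.

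Not every chaperone moved. Dnajc3, a co-chaperone of BiP known as p58IPK, lay between 19.6 and 20.4 FPKM in the libraries labelled Zak-deficient and between 17.9 and 18.6 in WT, although its promoter holds an ER stress element. Dnajb9, the co-chaperone ERdj4 that recruits BiP to IRE1, read 13.9, 16.9 and 8.16 FPKM at 0, 6 and 48 h in the libraries labelled Zak-deficient and 14.8, 21.1 and 6.89 FPKM in WT. It was lower at 48 h than at 0 h in both labels, and by exactly 2-fold in FPKM + 1 in WT. Manf, a secreted ER stress protein, read 16.7, 32.5 and 30.7 FPKM in the libraries labelled Zak-deficient and 17.6, 40.7 and 35.0 FPKM in WT. The membrane lectin Canx, the Hsp90 family member Hsp90b1 and the co-chaperone Dnajb11 had 6 h log2 differences of 0.61 to 0.91 in the libraries labelled Zak-deficient and 0.92 to 1.12 in WT. Of the exon bases of Hsp90b1, 10.3% overlap a gene on the opposite strand and 5.38% one on the same strand.

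The sensors and signal genes moved in different directions. Atf6 read 0.75, 3.16 and 4.57 FPKM at 0, 6 and 48 h in the libraries labelled Zak-deficient and 0.79, 3.49 and 5.13 FPKM in WT. It was the lowest of the 45 genes at 0 h and higher at each later time in both labels. Its fold of FPKM + 1 at 48 h over 0 h was 3.18 in the libraries labelled Zak-deficient and 3.42 in WT. The fold of FPKM itself was larger in both. Eif2ak3, the PERK kinase, went the other way, with 21.3, 10 and 5.33 FPKM in the libraries labelled Zak-deficient and 18.3, 9.04 and 6.04 FPKM in WT. In FPKM + 1 its 48 h value was 3.53-fold below that at 0 h in the libraries labelled Zak-deficient and 2.74-fold below it in WT. The 6 h value was close to the 2-fold limit in both (log2 differences of -1.02 in the libraries labelled Zak-deficient and -0.94 in WT). Xbp1 read 35.1, 57.8 and 33.4 FPKM in the libraries labelled Zak-deficient and 30.3, 63.0 and 36.5 FPKM in WT, thus highest at 6 h in both. Gene-level FPKM does not separate spliced from unspliced Xbp1, so it is no measure of IRE1 activity. Ern1 itself stayed between 0.93 and 2.08 FPKM in all 6 libraries.

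Ppp1r15a (GADD34) and Ppp1r15b (CReP), the regulatory subunits that direct a phosphatase to eIF2α, parted at 48 h. Ppp1r15a read 34.4, 45.5 and 15.7 FPKM at 0, 6 and 48 h in the libraries labelled Zak-deficient and 36.7, 46.2 and 16.1 FPKM in WT. Ppp1r15b read 25.7, 34.6 and 35.0 FPKM in the libraries labelled Zak-deficient and 25.6, 34.3 and 36.0 FPKM in WT. The stress-inducible Ppp1r15a thus lay at its lowest at 48 h in both labels, while the constitutive Ppp1r15b held its 6 h level. In Ppp1r15b, 11.4% of the annotated exon bases overlap a gene on the opposite strand, and the strandedness of the libraries is not given in the sources used here.

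At 48 h genes of oxidative folding, translocation and glycosylation made up 7 of the 11 genes that stood higher in both labels. Of the 45 genes, 11 (24.4%) were at least 2-fold higher at 48 h than at 0 h in both labels, against 16.4% of all genes, and 2 (4.44%) were lower, against 10.2% of all. The 11 were Atf6, Hspa5, Sdf2l1, Calr, Pdia4, Pdia6, P4hb, Ero1l, Ssr2, Stt3a and Rpn1, and the 2 were Eif2ak3 and Ppp1r15a. The share of higher genes was thus nearer to the background than at 6 h. Taken singly, the libraries labelled Zak-deficient had 12 higher (18.5% of all) and 2 lower (12% of all), and the WT libraries had 13 higher (17.8% of all) and 4 lower (12.3% of all). The median of the 45 was 0.52 in the libraries labelled Zak-deficient and 0.58 in WT, while that of all genes was 0.06 in the libraries labelled Zak-deficient and 0.00 in WT. The 6 h and 48 h differences of a label share its 0 h library.

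With a smaller limit of 1.5-fold, 23 of the 45 were higher at 6 h than at 0 h in both labels (51.1%, against 14.2% of all genes) and 1 was lower (2.22%, against 8.29%). At 48 h against 0 h 20 were higher (44.4%, against 26% of all) and 5 lower (11.1%, against 20.7%), and at 48 h against 6 h 3 were higher (6.67%, against 15.1%) and 4 lower (8.89%, against 11.9%).

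No ER gene was 2-fold higher at 48 h than at 6 h in both labels, against 8.25% of all genes, and Ppp1r15a (2.22%) was lower in both, against 4.51% of all. By direction alone, 18 genes (40%) were higher at 6 h than at 0 h and then lower at 48 h than at 6 h in both labels, against 14.2% of all genes. Another 16 (35.6%) were higher at each step, against 18% of all, but 13 with a common sum and 10 with median ratio scaling. A further 6 (13.3%, against 24.1% of all; 9 with a common sum and 4 with median ratio scaling) were lower at each step, namely Eif2ak3, Ero1lb, Edem1, Edem2, Sel1l and Stt3b, and Ssr3 was lower at 6 h and then higher. Derl2, Sec61a1, Sec62 and Sec63 took different courses in the 2 labels (8.89%, against 26.4% of all), and 13 genes did (28.9%, against 30.5%) with median ratio scaling. The summed FPKM of the 45 made up 0.342% of the library at 0 h, 0.562% at 6 h and 0.503% at 48 h in the libraries labelled Zak-deficient, and 0.349%, 0.586% and 0.541% in WT. The chaperones took 0.0928%, 0.219% and 0.177% of it in the libraries labelled Zak-deficient and 0.0941%, 0.235% and 0.197% in WT, a peak at 6 h in both.

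The oxidative folding enzymes, which form and rearrange disulfide bonds, had medians at 6 h of 0.60 in the libraries labelled Zak-deficient and 0.71 in WT, and at 48 h of 1.06 in the libraries labelled Zak-deficient and 1.16 in WT. P4hb, the protein disulfide isomerase PDI, read 58.7, 94.0 and 149.9 FPKM at 0, 6 and 48 h in the libraries labelled Zak-deficient and 61.2, 99.6 and 159.7 FPKM in WT. Pdia4, the isomerase ERp72, read 23.5, 38.7 and 59.1 FPKM in the libraries labelled Zak-deficient and 24.5, 41.4 and 62.1 FPKM in WT. Both were higher at each later time in both labels, with 48 h log2 differences of 1.30 to 1.37. Pdia6, the isomerase P5, instead peaked at 6 h, with 35.5, 90.0 and 78.2 FPKM in the libraries labelled Zak-deficient and 38.1, 99.2 and 85.5 FPKM in WT. Pdia3, the isomerase ERp57 that works with calreticulin, read 132, 135 and 187 FPKM in the libraries labelled Zak-deficient and 146, 177 and 209.9 FPKM in WT. Its 6 h level was near that at 0 h in the libraries labelled Zak-deficient (log2 difference 0.03, below 0 with a common sum) and somewhat higher in WT (0.28).

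Ero1l and Ero1lb (current symbols Ero1a and Ero1b), the oxidases that recharge PDI, diverged over time. Ero1l read 11.6, 17.1 and 24.1 FPKM at 0, 6 and 48 h in the libraries labelled Zak-deficient and 10.8, 18.7 and 25.7 FPKM in WT. Ero1lb read 7.10, 4.58 and 3.52 FPKM in the libraries labelled Zak-deficient and 7.37, 5.39 and 2.84 FPKM in WT. Ero1l was higher and Ero1lb lower at each step in both labels. In FPKM + 1 the 48 h increase of Ero1l was exactly at the 2-fold limit in the libraries labelled Zak-deficient. Among ER-associated degradation genes, only Herpud1, a scaffold of the ubiquitin ligase complex, was 2-fold higher at 6 h. It read 24.7, 59.2 and 40.1 FPKM at 0, 6 and 48 h in the libraries labelled Zak-deficient and 25.9, 58.9 and 39.0 FPKM in WT. The other 6, the ligase Syvn1 with its partner Sel1l, the mannosidase-like Edem1 and Edem2 and the derlins Derl1 and Derl2, had 6 h log2 differences of -0.59 to 0.65 over both labels. Edem1, which helps extract misfolded glycoproteins, read 39.4, 25.8 and 22.6 FPKM in the libraries labelled Zak-deficient and 38.7, 25.7 and 23.3 FPKM in WT, lower at each step in both. All 7 were lower at 48 h than at 6 h in both labels, except that Edem2 in WT turned slightly higher with median ratio scaling.

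The translocation channel and its partners thread new proteins into the ER. Ssr2, a subunit of the translocon-associated TRAP complex, read 43.2, 84.9 and 120.3 FPKM at 0, 6 and 48 h in the libraries labelled Zak-deficient and 46.9, 89.0 and 124 FPKM in WT. It was the only gene of this group past 2-fold in both labels, and 12.8% of its exon bases overlap a gene on the opposite strand. Sec61g, the small gamma subunit of the channel, read 22.4, 24.4 and 43.5 FPKM in the libraries labelled Zak-deficient and 19.04, 30.4 and 47.5 FPKM in WT. Both labels had their highest Sec61g level at 48 h, but its 6 h log2 difference was 0.11 in the libraries labelled Zak-deficient and 0.65 in WT, the largest gap of this kind among the 45 genes. The accessory proteins Sec62 and Sec63 were lower at 48 h than at 0 h in both labels, at log2 differences of -0.59 and -0.60 in the libraries labelled Zak-deficient and -0.38 and -0.39 in WT. The channel subunits Sec61a1 and Sec61b and the TRAP subunits Ssr1 and Ssr3 stood above their 0 h level at 48 h in both labels, at 0.09 to 0.87 in the libraries labelled Zak-deficient and 0.17 to 0.98 in WT, except that Ssr3 in the libraries labelled Zak-deficient fell below it with a common sum.

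The oligosaccharyltransferase attaches sugar chains to nascent proteins, and its catalytic subunits Stt3a and Stt3b belong to separate complexes. Rpn1 (ribophorin I) read 15.5, 42.0 and 45.6 FPKM at 0, 6 and 48 h in the libraries labelled Zak-deficient and 16.4, 44.9 and 52.3 FPKM in WT. Dad1, a small subunit of the complex, read 99.7, 218 and 165.9 FPKM in the libraries labelled Zak-deficient and 109 at 0 h, 232 at 6 h and 160.5 at 48 h in WT. Rpn1 stayed above 2-fold at 48 h in both labels, while Dad1 stood at log2 differences of 0.73 in the libraries labelled Zak-deficient and 0.55 in WT by then. Stt3a read 40.7, 76.6 and 83.9 FPKM in the libraries labelled Zak-deficient and 41.4, 84.2 and 87.6 FPKM in WT. Ddost and Rpn2, structural subunits of the complex, had 48 h log2 differences of 0.98 and 0.46 in the libraries labelled Zak-deficient and 1.01 and 0.68 in WT.

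Between paired genes, the balance moved with time in the same direction in both labels. Stt3a made up 48.3%, 64.4% and 67.6% of the summed FPKM of Stt3a and Stt3b at 0, 6 and 48 h in the libraries labelled Zak-deficient, and 35.5%, 59.6% and 66.3% in WT. Ero1l made up 61.9%, 78.8% and 87.3% of the Ero1l and Ero1lb sum in the libraries labelled Zak-deficient and 59.4%, 77.6% and 90.1% in WT. Atf6 made up 2.79%, 5.67% and 12.8% of the Atf6 and Atf6b sum in the libraries labelled Zak-deficient and 3.04%, 7.11% and 14.6% in WT. Atf6b, a close relative of Atf6, remained the more abundant of these in every library, at 25.2 to 52.5 FPKM. Ppp1r15a made up 57.2%, 56.8% and 30.9% of the Ppp1r15a and Ppp1r15b sum in the libraries labelled Zak-deficient and 58.9%, 57.4% and 30.9% in WT.

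**Figure D4:**
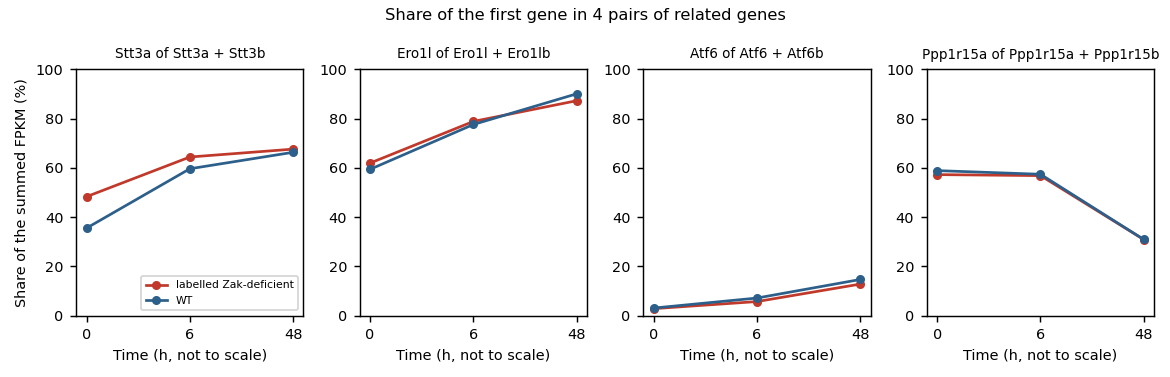
Share of the first gene in the summed FPKM of 4 gene pairs (percent) at 0, 6 and 48 h, with 1 line per label (libraries labelled Zak-deficient and WT). The shares of Stt3a, Ero1l and Atf6 are higher at each later time and that of Ppp1r15a is lower at 48 h, and the labels lie apart mainly for Stt3a at 0 h.

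The 6 h and 48 h differences can be set beside the promoter elements. The 11 genes with either element had 6 h medians of 0.91 in the libraries labelled Zak-deficient and 1.12 in WT, and 48 h medians of 0.75 in the libraries labelled Zak-deficient and 0.90 in WT. The 27 with a promoter but neither element had 6 h medians of 0.26 in the libraries labelled Zak-deficient and 0.49 in WT, and 48 h medians of 0.25 in the libraries labelled Zak-deficient and 0.26 in WT. At 6 h 5 of the 11 (Calr, Hspa5, Herpud1, Pdia6 and Creld2) and 3 of the 27 (Dad1, Sdf2l1 and Rpn1) were 2-fold higher in both labels. At 48 h the counts were 3 of 11 and 6 of 27. Of all genes past the filter, 7.64% were 2-fold higher in both labels at 6 h and 16.4% at 48 h. The 7 genes without a promoter entry, Atf6, Ppp1r15b, Hyou1, Manf, Derl1, Sec61a1 and Ssr2, are in neither set. Of these, Atf6 and Hyou1 were also 2-fold higher in both labels at 6 h, and Atf6 and Ssr2 at 48 h. Both sets spread widely: with an element, values at 6 h ran from Ero1lb (-0.54 and -0.39 in the libraries labelled Zak-deficient and WT) to Hspa5 (2.19 and 2.35). Without one they ran from Eif2ak3 to Sdf2l1. These are descriptions of few genes that differ in role as well as in promoter.

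Between the labels, the ER genes differed little, like most genes past the filter. At the 2-fold limit 0 of 45 differed at 0 h, at 6 h or at 48 h, against 0.271%, 0.251% and 2.23% of all genes in either direction. At a smaller limit of 1.5-fold, Stt3b alone differed at 0 h (2.22%, against 1.12% of all), and 0 of 45 at 6 h (1.65% of all) and at 48 h (4.22% of all). Across the 45 genes, the 6 h difference in the libraries labelled Zak-deficient went with that in WT at r = 0.97, and the 48 h difference at r = 0.98. Over all 10347 genes r was 0.93 at 6 h and 0.96 at 48 h. These are descriptions across genes of single libraries, and genes are not independent replicates.

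Stt3b, the catalytic subunit of the complex that can also act after translocation, was the gene furthest apart between the labels at 0 h and at 6 h. It read 43.6, 42.4 and 40.2 FPKM at 0, 6 and 48 h in the libraries labelled Zak-deficient, and 75.2, 57.1 and 44.5 FPKM in WT. Its level was thus nearly flat in the libraries labelled Zak-deficient and lower at each later time in WT. The gap was widest at 0 h, where the library labelled Zak-deficient was 1.71-fold lower in FPKM + 1. The log2 difference between the labels was -0.77 at 0 h, -0.42 at 6 h and -0.14 at 48 h. Among the 10347 genes it ranked at place 14 at 0 h when ordered from the lowest in the library labelled Zak-deficient. The partner subunit Stt3a differed by -0.03 at 0 h.

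**Figure D5:**
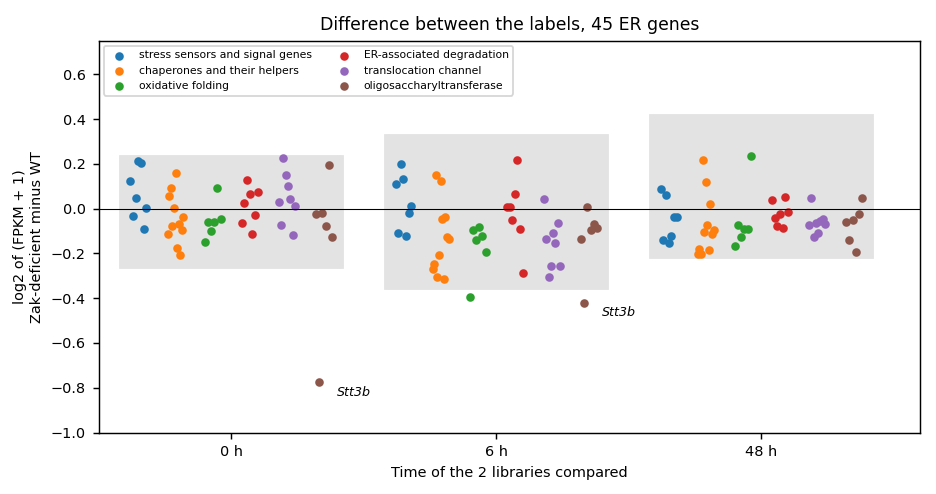
Log2 difference of FPKM + 1 between the library labelled Zak-deficient and the WT library for each of the 45 ER genes at 0, 6 and 48 h, with the range from the 5th to the 95th percentile of all 10347 genes shaded. Each point is 1 gene, coloured by role. Stt3b lies below the range at 0 h and 6 h and Pdia3 just below it at 6 h, and most points at 6 h and 48 h lie below 0.

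The other genes named by the size of their label difference differed by 1.31-fold or less in FPKM + 1. At 0 h Sec61g and Eif2ak3 were higher in the library labelled Zak-deficient by log2 differences of 0.23 and 0.21. At 6 h Pdia3 and Manf were lower in it, at -0.39 and -0.32. At 48 h Ero1lb and Dnajb9 were higher in it, at 0.24 and 0.22, and Hspa5 was lower, at -0.20. At 6 h and 48 h most of these small differences pointed the same way. At 6 h 33 of 45 genes (73.3%) were below 0, against 53.1% of all genes, and at 48 h 35 of 45 (77.8%), against 53.9%. At 0 h 24 of 45 (53.3%) were below 0, against 51.9% of all. The medians of the 45 were -0.03 at 0 h, -0.10 at 6 h and -0.07 at 48 h. At all 3 times 15 genes (33.3%, against 16.4% of all) were lower in the library labelled Zak-deficient, and Ern1, Atf6b and Dnajc3 (6.67%, against 11.1%) were higher. The shares at single times depend on the scaling, and those at all 3 times were not recomputed with it. With every library scaled to a common sum, 27 of 45 (60%) were below 0 at 6 h, against 40.1% of all. The common sum left 24 of 45 below 0 at 0 h (53.3%, against 47.4% of all) and 35 of 45 at 48 h (77.8%, against 58.7%). With median ratio scaling, 42 of 45 (93.3%) were below 0 at 48 h, against 84.5% of all, and that scaling puts the median of all genes at -0.17.

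A wider list of 96 other ER genes, from glycan trimming to export, was set beside the 45. Of these, 93 passed the filter. Their medians at 6 h were 0.17 in the libraries labelled Zak-deficient and 0.24 in WT, below those of the 45. At 6 h 6 of 93 (6.45%) were higher by 2-fold or more in both labels, close to the 7.64% of all genes. At that time 0 were lower, against 0.512% of all. At 48 h 8 of 93 (8.60%) were higher in both, fewer than the 16.4% of all genes. Again 0 were lower, against 10.2% of all, so fewer of the list passed the limit either way. The 6 at 6 h were Fkbp2, Mogs, Atf4, Trib3, Chac1 and Eif2s1, and the 8 at 48 h were Fkbp2, Mogs, Prkcsh, Tusc3, Derl3, Chac1, Eif2s1 and Lman1. Derl3 is also one of the plasma cell markers, and the part of such cells in its change was not tested. Derl3 passed the filter only through its 48 h libraries, since it was below 1 FPKM in the others. Chac1, at 0 and 0.04 FPKM at 0 h, passed the filter and the mean of 5 FPKM used for naming only through its stimulated libraries.

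Several genes of the wider list belong to the signalling at and below eIF2α, which is encoded by Eif2s1. The part of PERK in their changes was not tested. Chac1, a glutathione-degrading enzyme induced by ATF4, was listed at 0 at 0 h, read 14.7 FPKM at 6 h and 4.30 at 48 h in the libraries labelled Zak-deficient, and read 0.04, 10.8 and 4.34 FPKM in WT. Trib3, a pseudokinase target of the same factor, read 6.30, 25.5 and 5.30 FPKM in the libraries labelled Zak-deficient and 9.50, 27.7 and 4.63 FPKM in WT. The transcription factor Atf4 itself read 109.98, 247 and 215 FPKM in the libraries labelled Zak-deficient and 101, 269 and 212 FPKM in WT. Chac1 and Trib3 peaked at 6 h in both labels, and together with Ddit3 (CHOP) they were the 3 of 93 other ER genes (3.23%) 2-fold lower at 48 h than at 6 h in both, a share no higher than the 4.51% of all genes. Outside that signalling, Fkbp2, an ER prolyl isomerase, read 9.45, 25.4 and 42.0 FPKM in the libraries labelled Zak-deficient and 10.4, 25.4 and 42.1 FPKM in WT. Mogs, the glucosidase that starts glycan trimming, read 26.5, 60.2 and 75.2 FPKM in the libraries labelled Zak-deficient and 23.7, 53.3 and 75.6 FPKM in WT.

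The lowest differences of the wider list did not reach 2-fold in both labels. At 6 h these were Cnpy4, a chaperone-like protein, Creb3, an ER-anchored transcription factor, and Rnf5, a ubiquitin ligase. Cnpy4 read 10.5, 6.55 and 12.6 FPKM at 0, 6 and 48 h in the libraries labelled Zak-deficient and 11.8, 7.04 and 12.2 FPKM in WT. Creb3 read 19.1, 13.2 and 15.2 FPKM in the libraries labelled Zak-deficient and 20.1, 13.4 and 14.1 FPKM in WT. Rnf5 read 39.9, 27.7 and 31.5 FPKM in the libraries labelled Zak-deficient and 41.7, 29.8 and 33.2 FPKM in WT. All 3 were lowest at 6 h in both labels. At 48 h the lowest were Os9 and Erlec1, lectins of ER-associated degradation, and Mbtps1, the site-1 protease that cuts ATF6. Os9 read 55.5, 43.8 and 27.3 FPKM in the libraries labelled Zak-deficient and 51.1, 37.7 and 28.4 FPKM in WT. Erlec1 read 24.1, 15.2 and 12.2 FPKM in the libraries labelled Zak-deficient and 21.8, 18.3 and 12.4 FPKM in WT. Mbtps1 read 44.9, 35.8 and 25.8 FPKM in the libraries labelled Zak-deficient and 45.9, 32.1 and 26.0 FPKM in WT. These 3 were lower at each later time in both labels.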

How the data were processed

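The deposited values are the authors' FPKM, 1 for each gene in a library. Bowtie, RSEM and mm10 are named in the submitters' processing notes, while their roles, versions and settings were not given in the sources used here. No reads were analysed. Symbols came from the reference table by gene identifier (18326 of 18446 genes). Levels were compared as log2(FPKM + 1) without rescaling, with a filter of a mean of 1 FPKM or more, and counted at 2-fold. With 1 library per group no test was fitted, FPKM gives no read depth, and no interval could be set. The 45 genes, the other gene lists and the motifs were chosen with earlier results of these data known. Values in every library are given for genes 2-fold apart in the same direction in both labels between times, for the 3 furthest apart between the labels at each time, and, in the wider list, for the 3 with the largest mean change each way at 6 h and 48 h (mean of 5 FPKM or more). Other members are named after their values were seen. Alternatives were pseudocounts of 0.1 and 5 FPKM, no filter or a mean of 5 FPKM, 2 scalings and a 1.5-fold limit; the WT libraries alone were added after the data were seen. The counting was tested on simulated data. Promoters were RefSeq, GRCm38.p6, and exon overlaps were from GENCODE M21. Calr has an annotated pseudogene, Calr-ps. Python 3.11.15, numpy 2.4.6, pandas 2.3.3 and matplotlib 3.10.9 were used.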

Additional observations from a re-analysis of the deposited data

Results flagged for a closer look

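A few genes moved in opposite directions in the 2 labels, each on 1 library per group, and the difference was not tested for any of them. In the steps from 0 to 6 h and from 6 to 48 h, 4 ER genes (8.89%) took different courses, against 26.4% of all genes. For 48 h against 0 h the share of all genes with opposite directions was not counted. At 6 h against 0 h, Derl2 had a log2 difference of -0.29 in the libraries labelled Zak-deficient and 0.07 in WT, a gap of -0.36. Sec62 had -0.14 in the libraries labelled Zak-deficient and 0.27 in WT, a gap of -0.41, and 11.7% of its exon bases overlap a gene on the opposite strand. Sec63 had -0.19 in the libraries labelled Zak-deficient and 0.02 in WT, a gap of -0.21. At 48 h against 0 h, Xbp1 had -0.07 in the libraries labelled Zak-deficient and 0.26 in WT, a gap of -0.33. Derl1 had 0.00 in the libraries labelled Zak-deficient and -0.08 in WT, a gap of 0.08. At 48 h against 6 h, Sec61a1 had -0.02 in the libraries labelled Zak-deficient and 0.10 in WT, a gap of -0.11. None of these values reaches 1.5-fold in either label. With a common sum Derl2 and Sec63 were below 0 at 6 h in both labels (-0.32 and -0.22 in the libraries labelled Zak-deficient, -0.02 and -0.07 in WT). Derl1 was below 0 at 48 h in both labels with a common sum (-0.13 in the libraries labelled Zak-deficient and -0.18 in WT) and with median ratio scaling (-0.08 in the libraries labelled Zak-deficient and -0.03 in WT). The opposite directions of Sec62, Xbp1 and Sec61a1 held under both scalings.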

How the results depend on the processing

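Of 69 recounts of the ER genes under the alternatives, 54 stayed within 1.5 times the count given and 15 moved. The recounts without a filter could not move, since all 45 genes passed it. Genes 2-fold lower in both labels at 6 h against 0 h went to 1 (Eif2ak3) with a pseudocount of 0.1 FPKM, with a common sum and with the 1.5-fold limit. Those lower at 48 h against 6 h went to 2 (Dnajb9 added) with a pseudocount of 0.1 FPKM, a common sum, median ratio scaling or the WT libraries alone, and to 4 with the 1.5-fold limit. Those lower at 48 h against 0 h went to 1 with a pseudocount of 5 FPKM, to 4 in the WT libraries alone and to 5 with the 1.5-fold limit. With the 1.5-fold limit, 23 genes were higher at 6 h and 20 at 48 h against 0 h, 3 were higher at 48 h against 6 h, and 1 (Stt3b) differed between the labels at 0 h. Of 1233 single values recomputed for 23 genes, 1196 stayed on their side of the 2-fold limit, 26 were no longer past it and 11 passed it newly. The 1196 include all values without a filter or with a mean of 5 FPKM. Those settings only choose genes, so their single values could not change. No value past the limit changed sign, but 13 values of at most 0.13 in size did, 5 with a common sum and 8 with median ratio scaling. No paired analysis was possible because each group holds 1 library and the labels carry no replicate numbers to pair; a fit that pairs the labels by time, with the 3 times in the place of replicates, was not run. No library could be left out within a group, and the spread between cultures or mice is unknown. The read depth is also unknown, which limits the low genes Ern1 and Atf6 most.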
